A study of Mus musculus with 6 samples.

Results

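Transcripts of 7 mouse cytochrome P450 genes, Cyp2a4, Cyp2a5, Cyp2a22, Cyp2c29, Cyp2c55, Cyp2c65 and Cyp2c66, were followed in esophagus RNA from adult mice labelled as Pax9 knockouts and as wild types. The genes were taken by name: every non-control probe whose gene name in the scanner files, or whose accession's current symbol, was 1 of these 7, which gave 9 of 41174 probes. All 9 passed the filter on dim probes and belong to the 30505 probes tested, which stand for 20820 genes. The Cyp2a22 probe passed it through the arrays labelled knockout, since on 1 of the 3 arrays labelled wild type it was not well above background. The genes were chosen because results of this same comparison were known, so their differences between the groups are given as a description, without a test.

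The arrays labelled knockout (n = 3) carried RNA of K5Cre;Pax9 loxP/loxP mice, in which Cre under a keratin 5 promoter removes Pax9, a paired-box transcription factor, from keratin 5 cells and their descendants. The arrays labelled wild type (n = 3) carried RNA of mice without these alleles, and all mice were adults given as C57BL/6J. The labels name the source as the epithelium of the esophagus, while RNA was extracted from esophageal tissue, so cells outside the Cre driver's reach can contribute. Each array compared this RNA in Cy5 with a common RNA pooled from 11 mouse cell lines in Cy3, without a dye swap. The unit used here is the log2 ratio of Cy5 over Cy3 after background correction and loess normalization. Background-subtracted Cy5 signals of single arrays are given beside it in scanner units. Differences called Cy5 alone do not use these scanner signals. They use log2 of the background-corrected Cy5, brought to the same distribution on all 6 arrays by quantile normalization.

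Cytochromes P450 are haem enzymes of the endoplasmic reticulum that insert an oxygen atom into lipophilic substrates, using electrons from the reductase Por. Cyp2a enzymes are known from liver and olfactory mucosa, where they oxidise small toxicants such as coumarin and nicotine and also steroids. Cyp2c enzymes are known from liver and gut, where they metabolise drugs and turn arachidonic acid into epoxides, which the soluble epoxide hydrolase Ephx2 opens to diols.

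The labels could not be checked through Pax9 itself. Its probe gave Cy5 signals of 17209, 18930 and 19081 on the arrays labelled knockout and of 4409, 4708 and 8915 on those labelled wild type. The log2 ratio was 6.77 ± 0.05 on the arrays labelled knockout and 6.04 ± 0.31 on those labelled wild type (SD, n = 3 each). Pax9 was thus not lower under the knockout label, and the difference of 0.73 (SE 0.18) did not pass (adjusted p = 0.071, limma). It passed as higher under the knockout label in Cy5 alone (1.09, limma adjusted p = 0.0094) and with an intensity trend and array weights (0.61, limma adjusted p = 0.038), and the labels do not say whether the probe lies in the deleted part. Every direction below rests on the labels. All arrays labelled knockout lay on slide 2 and all those labelled wild type on slide 1, each slide with its own scan, so slide and label cannot be told apart. The share of probes with Cy5 well above background was 71.8% to 76.1% per array under the knockout label and 67.3% to 77.3% under the wild type label. The sex of the animals is not in the labels. The probe for Xist, an RNA made from the inactive X chromosome of female cells, had Cy5 signals of 6.88, 13.3 and 4965 on the arrays labelled knockout and of 14.9, 15.1 and 10183 on those labelled wild type. The Y-linked Eif2s3y had 2872, 3979 and 0.531 on the arrays labelled knockout and 1602, 1302 and 2.06 on those labelled wild type. In each group replicates 1 and 2 thus stood apart from replicate 3 in sex-linked RNA, and the groups were matched in this.

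Cyp2a5, which hydroxylates coumarin, and Cyp2a4, which hydroxylates testosterone, lie in the same cluster on chromosome 7, and the probes do not fully separate them. The Cyp2a5 probe lies at 27628169 to 27628228 (mm9). Of the Cyp2a4 probes, A lies at 27099972 to 27100031, B at 27099932 to 27099991 and C over 27098659 to 27099724. Probe C holds 60 bases but covers 1066 bases of the chromosome in the files' annotation, so it crosses an intron. All 3 Cyp2a4 probes list accessions of both Cyp2a4 and Cyp2a5 in the scanner files. Probe A and the Cyp2a5 probe share a run of 28 bases, and probes A and B share 20 where they overlap. The shared runs are shown in capitals, because they set how far these probes are independent readings. The pair of windows for the 28-base run comes first, then the pair for the 20-base run, then probe C whole:
Cyp2a4 probe A: tcGTAGACTTGCAGAGGATATTTCAAAGGT
Cyp2a5: gaGTAGACTTGCAGAGGATATTTCAAAGGT
Cyp2a4 probe A: GTCAAAGGTACAGAAGAAACag
Cyp2a4 probe B: agGTCAAAGGTACAGAAGAAAC
Cyp2a4 probe C: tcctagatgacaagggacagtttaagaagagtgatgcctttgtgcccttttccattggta

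The Cyp2a5 probe had Cy5 signals of 6417, 23742 and 29774 on the arrays labelled knockout (replicates 1, 2 and 3), against 153, 210 and 1012 on the arrays labelled wild type. Its log2 ratio was 7.18, 7.54 and 7.86 on the arrays labelled knockout, against 2.56, 2.78 and 4.51 on those labelled wild type. Every array labelled knockout stood above every array labelled wild type, and replicate 3 was the highest in each group. The mean was 7.53 ± 0.34 under the knockout label and 3.28 ± 1.07 under the wild type label (SD, n = 3 each), a difference of 4.24 (SE 0.50), or 18.9-fold. In Cy5 alone the difference was 4.95 (SE 0.48), or 31.0-fold. In bulk RNA, more RNA per cell and more cells of an expressing type cannot be told apart.

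The Cyp2a4 probes behaved alike. Probe A had Cy5 signals of 2587, 9315 and 16251 on the arrays labelled knockout, against 59.4, 79.7 and 423 on those labelled wild type. Probe B had 8221, 16769 and 33424 on the arrays labelled knockout, against 65.0, 107 and 632 on those labelled wild type. Probe C had 3309, 5000 and 10659 on the arrays labelled knockout, against 122, 134 and 543 on those labelled wild type. In all 3 probes the groups stood apart without overlap and replicate 3 was again highest within each group, the array with the bright Xist probe. The log2 ratio was higher under the knockout label by 4.59 (SE 0.50) for probe A, by 4.39 (SE 0.54) for probe B and by 3.18 (SE 0.24) for probe C. Probe C, which covers a splice junction and is brightest over both channels, represents the gene in the counts below. With the 4 arrays of dim Xist signal alone, a choice made after seeing the data, the differences were 4.95, 5.04 and 3.25 for probes A, B and C and 4.69 for Cyp2a5, so the higher Cyp2a ratios were also present without replicate 3.

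Cyp2a22 lies on chromosome 7 beyond Cyp2a5, with its probe at 27722746 to 27722805 (mm9). The whole probe is shown as the only reading of this gene:
Cyp2a22: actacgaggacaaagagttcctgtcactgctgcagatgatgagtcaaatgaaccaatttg
Its Cy5 signals were 259, 209 and 999 on the arrays labelled knockout, against 20.2, 5.62 and 40.0 on those labelled wild type, where the value of 5.62 was not well above background. Its log2 ratio was 2.33, 2.19 and 3.88 under the knockout label, against 0.29, -0.16 and 0.23 under the wild type label. The groups did not overlap, the difference was 2.68 (SE 0.44), and replicate 3 accounted for most of the spread under the knockout label (2.80 ± 0.94, against 0.12 ± 0.24 under the wild type label). Without knockout replicate 3 the difference was 2.14.

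**Figure D1:**
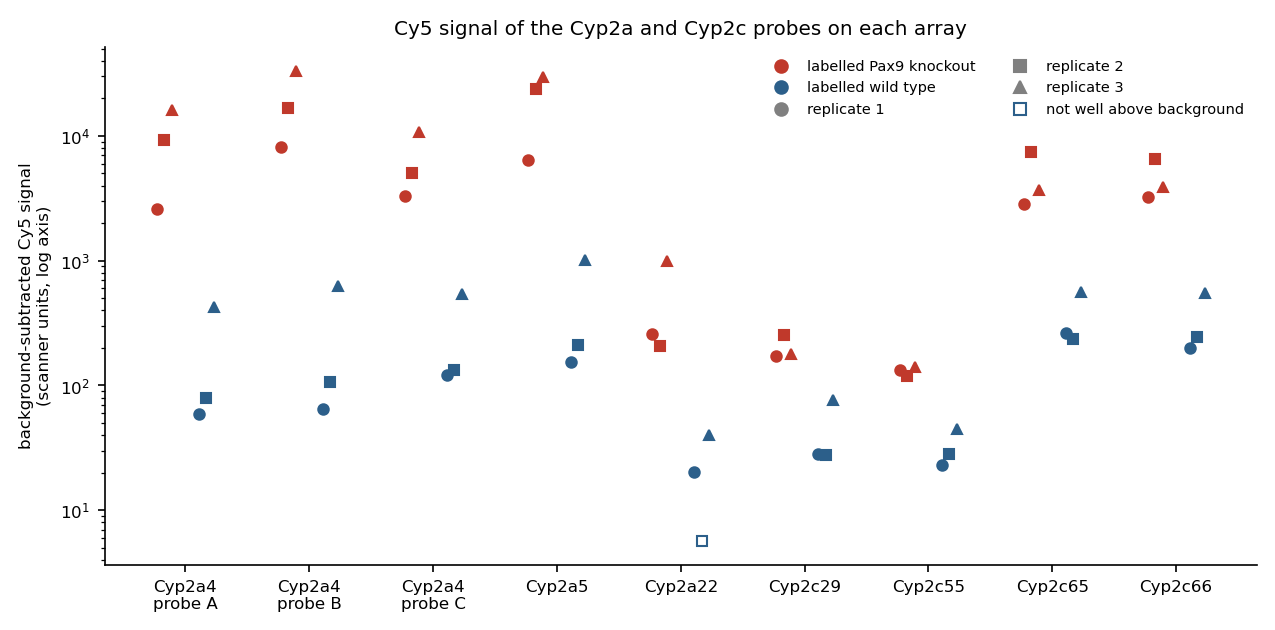
Background-subtracted Cy5 signal (scanner units, log axis) of the 9 Cyp2a and Cyp2c probes on each array, with arrays labelled Pax9 knockout left of those labelled wild type, marker shape for the replicate number and an open marker for a value not well above background. For Cyp2a5 the arrays labelled knockout sit between 6417 and 29774, all above the wild type values of 153 to 1012, and for Cyp2c55 between 119 and 141, above 23.2 to 44.7.

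The genes on chromosome 19 lie side by side in the order Cyp2c55, Cyp2c65, Cyp2c66 and Cyp2c29. Cyp2c65 and Cyp2c66 are known from the gastrointestinal tract, where they oxidise arachidonic acid. The Cyp2c65 probe lies at 39168290 to 39168349 and the Cyp2c66 probe at 39261183 to 39261242 (mm9). The longest run of bases the 2 probes share is 7, but the Cyp2c66 probe lists accessions of both genes in the scanner files, so its signal may hold Cyp2c65 transcript too. Cyp2c65 had Cy5 signals of 2851, 7404 and 3699 on the arrays labelled knockout, against 262, 237 and 562 on those labelled wild type. Cyp2c66 had 3215, 6593 and 3888 on the arrays labelled knockout, against 201, 245 and 551 on those labelled wild type. Here replicate 2 was the highest under the knockout label, unlike the Cyp2a probes, and replicate 3 the highest under the wild type label. The scanner signals are not scaled between arrays: the median Cy5 signal over all probes was 97.5, 133 and 124 on the arrays labelled knockout and 56.0, 72.7 and 159 on those labelled wild type, so wild type replicate 3 was the brightest array in general.

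On the ratio scale Cyp2c65 read 6.13, 7.11 and 6.30 under the knockout label, against 2.76, 2.31 and 2.52 under the wild type label. Cyp2c66 read 5.61, 5.43 and 4.94 under the knockout label, against 2.00, 2.06 and 2.06 under the wild type label. Neither gene's groups overlapped. The differences were 3.99 (SE 0.28, 15.8-fold) for Cyp2c65 and 3.28 (SE 0.20, 9.72-fold) for Cyp2c66. Over the arrays left out 1 at a time they stayed between 3.69 and 4.17 for Cyp2c65 and between 3.14 and 3.47 for Cyp2c66, the narrowest ranges relative to size among the 7 genes together with Cyp2a4 probe C (3.03 to 3.40).

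Cyp2c29, a liver epoxygenase of arachidonic acid, was dim. Its probe, at 39403642 to 39403701 on chromosome 19 (mm9), is shown whole as the only reading of this gene:
Cyp2c29: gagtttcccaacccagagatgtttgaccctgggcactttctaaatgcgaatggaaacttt
Its Cy5 signals were 171, 252 and 178 on the arrays labelled knockout, against 28.1, 27.8 and 76.5 on those labelled wild type. The log2 ratio was 1.31 ± 0.22 under the knockout label and 0.18 ± 0.05 under the wild type label (SD, n = 3 each). The groups did not overlap and the difference was 1.13 (SE 0.16), or 2.19-fold. It was 0.68 with median centring in place of loess, so its size depends on the normalization.

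Cyp2c55, which oxidises arachidonic acid and is known from the colon, was the exception. Its probe lies at 39116674 to 39116733 on chromosome 19 (mm9). The cell line RNA in Cy3 was bright at this probe, at 3739, 4149 and 3866 on the arrays labelled knockout and 4040, 4034 and 3935 on those labelled wild type. The Cy5 signal was 134, 119 and 141 on the arrays labelled knockout, against 23.2, 28.4 and 44.7 on those labelled wild type. The log2 ratio was therefore negative throughout, at -3.08, -3.54 and -3.31 under the knockout label and -3.39, -3.50 and -4.60 under the wild type label. On this scale the groups overlapped, with a difference of 0.52 (SE 0.33). In Cy5 alone they did not, with a difference of 0.83 (SE 0.17), or 1.78-fold, and the deposited log ratio gave 1.07 (SE 0.24) without overlap. Without wild type replicate 3 the difference of the ratio was 0.13.

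Over the 7 genes, each read by its probe of highest mean intensity, the ratio was higher under the knockout label in all 7, with a median difference of 3.18, against a median of 0.01 over the 20820 genes tested. In the fit over all probes, 6 of the 7 were past an adjusted p of 0.05, all higher; over all genes 4.84% were past it and 2.83% were past it and higher. Since the genes were chosen on this comparison, nothing is read from that count. In Cy5 alone all 7 were past it and higher, where 14.3% of all genes were. With the deposited log ratio 4 of the 7 were, against 1.45% of all genes. Every array labelled knockout stood above every array labelled wild type in 8 of the 9 probes on the ratio scale, where 15.5% of all tested probes did, and in 9 of 9 in Cy5 alone, where 23.8% did.

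**Figure D2:**
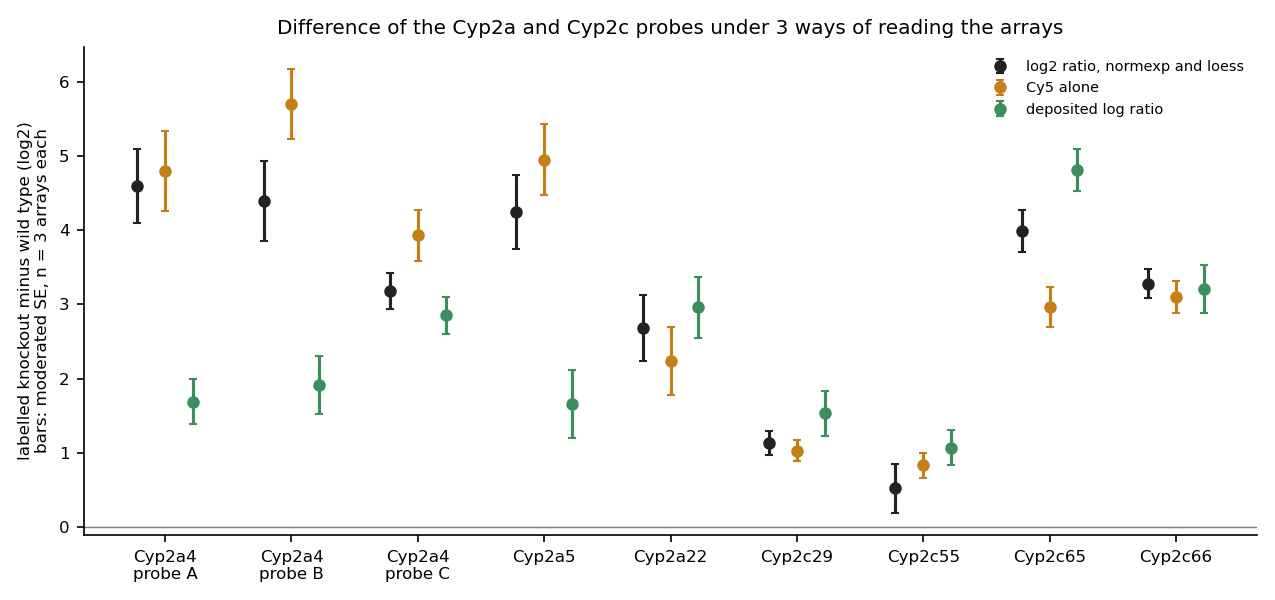
Difference between arrays labelled Pax9 knockout and wild type (log2 scale, points, with bars for the moderated SE, n = 3 arrays each) for the 9 probes, read as the log2 ratio after normexp and loess, as Cy5 alone and as the deposited log ratio. Cyp2a5 reads 4.24, 4.95 and 1.66 in these 3 ways, while Cyp2c66 reads 3.28, 3.1 and 3.21.

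The differences of Cyp2a4 and Cyp2a5 were smaller in the deposited log ratio than in the ratio used here, and their Cy3 values are given beside them. Cy3 carried the same cell line RNA on every array, yet for Cyp2a5 its signal was 41.3, 187 and 186 on the arrays labelled knockout, against 6.72, 13.5 and 8.52 on those labelled wild type, none of which was well above background. Cyp2a4 probe B behaved likewise, with Cy3 signals of 137, 271 and 504 on the arrays labelled knockout, against 13.0, 21.6 and 22.2 on those labelled wild type. On the arrays labelled knockout Cy3 was 0.643%, 0.786% and 0.626% of Cy5 for Cyp2a5. Among all probes with a Cy5 signal over 5000 on those arrays, the lowest 1% of probes had a Cy3 share of at most 0.652%, 0.946% and 0.826%, and the Cyp2a5 share lay below that limit on all 3 arrays. For Cyp2c65 the Cy3 signal went the other way, at 31.1, 47.2 and 32.1 on the arrays labelled knockout and 90.9, 98.5 and 107 on those labelled wild type. The part of Cy3 in the Cyp2a ratios was not tested, and the deposited ratio differs in background subtraction and dye normalization as well. In the deposited log ratio, Cyp2a5 read 8.49, 7.87 and 8.14 under the knockout label, against 6.49, 5.57 and 7.46 under the wild type label, a difference of 1.66 (SE 0.46) still without overlap. Cyp2a4 probes A, B and C read differences of 1.69, 1.91 and 2.85 there, while Cyp2a22, Cyp2c65 and Cyp2c66 read 2.96, 4.81 and 3.21. The order of the genes by size of difference is therefore not settled, whereas the direction was the same in all 3 readings.

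**Figure D3:**
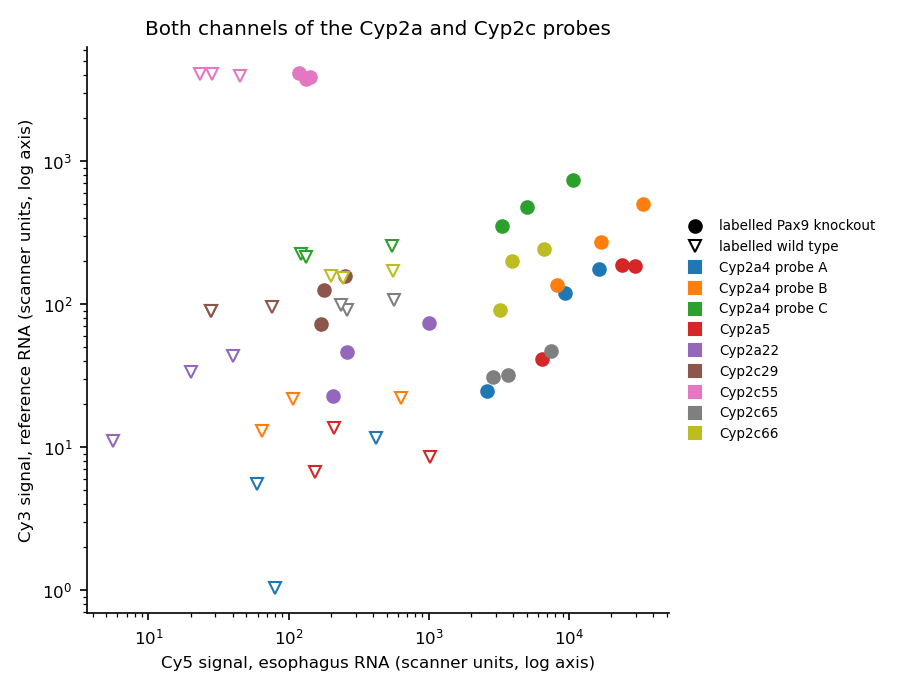
Cy3 signal of the cell line RNA against Cy5 signal of the esophagus RNA (scanner units, both axes log) for the 9 probes on each array, filled circles for arrays labelled Pax9 knockout and open triangles for arrays labelled wild type. Cyp2a5 and the Cyp2a4 probes move up and right together under the knockout label, Cyp2c65 moves right and down, and Cyp2c55 sits alone at a Cy3 signal between 3739 and 4149.

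RefSeq windows of 250 bases before to 50 after the start, on GRCm38.p6, were found for all 7 genes. Aligned, those of Cyp2a4 and Cyp2a5 were 98.3% identical (294 of 299 positions) and those of Cyp2c65 and Cyp2c66 87.4% (256 of 293), while Cyp2a4 and Cyp2a22 reached 58.7%. The 100 bases before the start are shown for these pairs, the most alike in letters, with the TATA element nearest to the start in capitals:
Cyp2a4 (chr7:26307092-26307191, plus strand): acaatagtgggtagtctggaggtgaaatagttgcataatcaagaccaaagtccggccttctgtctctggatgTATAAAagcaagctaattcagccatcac
Cyp2a5 (chr7:26835239-26835338, plus strand): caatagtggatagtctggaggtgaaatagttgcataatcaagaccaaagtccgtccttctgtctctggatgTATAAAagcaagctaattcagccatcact
Cyp2c65 (chr19:39060906-39061005, plus strand): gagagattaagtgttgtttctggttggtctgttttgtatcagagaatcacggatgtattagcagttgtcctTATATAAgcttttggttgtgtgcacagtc
Cyp2c66 (chr19:39113798-39113897, plus strand): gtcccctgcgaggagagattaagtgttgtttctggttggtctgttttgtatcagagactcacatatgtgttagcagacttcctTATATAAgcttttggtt
Searched on both strands, the letters TATAAA were present in the windows of all 7 genes and in 13.6% of 32851 promoters. In Cyp2a4, Cyp2a5, Cyp2a22 and Cyp2c55 they began 28 or 29 bases before the start, and in Cyp2c29 19 bases before it. Cyp2c65 and Cyp2c66 held TATAAA only farther out, and near the start they held TATATAA, present in 3.24% of promoters. The nuclear receptor half-site AGGTCA was in 3 of the 7 windows (Cyp2a4, Cyp2a5 and Cyp2c29) and in 16.3% of promoters. The antioxidant element core TGACNNNGC was in Cyp2c65 and Cyp2c66 and in 12.4% of promoters. The core GTCACGC, bound by paired-domain factors of the Pax1 and Pax9 type, was in none of these 7 windows and in 2.09% of promoters, and the HNF4-type direct repeat (AGGTCA, any base, AGGTCA), which contains the half-site, was likewise in none and in 0.0396%. These are matches of letters in this window and no measure of binding.

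Of 21 listed neighbours in the Cyp2 cluster of chromosome 7 and among the Cyp2c genes of chromosome 19, 16 had a probe and 12 were tested. 2 rose, 0 fell and 10 did not pass (limma), with a median difference of 0.36, against 590 that rose and 417 that fell among all 20820 genes. At an unadjusted p under 0.05 there were 6 of the 12 neighbours and 5152 of the 20820 genes. Both that rose are Cyp2b genes. Cyp2b10 is known in liver as a target of the xenobiotic receptor Nr1i3, which had no probe among those tested here. Cyp2b10 had Cy5 signals of 736, 820 and 1034 on the arrays labelled knockout, against 269, 124 and 423 on those labelled wild type, without overlap. Its ratio was 4.22 ± 0.20 under the knockout label and 2.72 ± 0.59 under the wild type label, a difference of 1.5 (SE 0.30, limma adjusted p = 0.043). Cyp2b13 had Cy5 signals of 1377, 1399 and 1388 on the arrays labelled knockout, against 425, 268 and 670 on those labelled wild type, also without overlap. Its ratio was 4.70 ± 0.24 under the knockout label and 3.28 ± 0.50 under the wild type label, a difference of 1.42 (SE 0.27, limma adjusted p = 0.038). Each call was lost when any 1 array was left out, at limma adjusted p up to 0.17 for Cyp2b10 and 0.15 for Cyp2b13, and with the deposited log ratio (0.21 and 0.099). A second Cyp2b13 probe, dimmer, read -0.28. Cyp2b9, between them and Cyp2a4 and named after its values were seen, had Cy5 signals of 4254, 6373 and 5471 on the arrays labelled knockout, against 1295, 644 and 1155 on those labelled wild type, and a difference of 1.48 (SE 0.32) that did not pass (limma adjusted p = 0.051; 0.03 with the replicate number as a block).

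Within the chromosome 7 cluster, the differences of the ratio are listed as a description, since its Cyp2a genes were chosen on this comparison. Whether adjacent genes share a difference was not tested. In chromosomal order Cyp2s1 read 0.27, Cyp2b10 1.5, Cyp2b13 1.42, Cyp2b9 1.48 and Cyp2a4 3.18. Then came Cyp2b23 at 0.45, Cyp2b19 at -0.66, Cyp2g1 at -0.07, Cyp2a5 at 4.24 and Cyp2a22 at 2.68. Cyp2b23 and Cyp2g1 were near background, which limits their differences. Cyp2b23 had Cy5 signals of 52.2, 63.8 and 51.5 on the arrays labelled knockout, against 0.655, 6.62 and 5.69 on those labelled wild type. Cyp2g1 had 0.448, 6.46 and 4.44, against 14.1, 21 and 45.7. The probe of Cyp2a12, next after Cyp2a22, was well above background on 0 arrays. Cyp2f2, beyond it, read 0.26 on the ratio scale but 1.54 in Cy5 alone (limma adjusted p = 0.0065), with Cy5 signals of 313378, 305713 and 295982 on the arrays labelled knockout, against 41260, 58724 and 134845 on those labelled wild type. On chromosome 19, the probes of Cyp2c39 and Cyp2c38, next to Cyp2c29, were well above background on 0 arrays. Farther along, Cyp2c40 read 0.25, Cyp2c37 1.09, Cyp2c70 0.84 and Cyp2c23 -0.11 on the ratio scale, none past the threshold. The Cyp2c40 probe was well above background on 0 of the arrays labelled wild type. Cyp2b9 and Cyp2c37 had 2 tested probes each, and only that of highest mean intensity is given here. In Cy5 alone Cyp2c37 read 1.87 and Cyp2c70 1.30, and 8 of the 12 tested neighbours passed in either direction. Among these were Cyp2b23 as higher (0.76, limma adjusted p = 0.014) and Cyp2g1 as lower (-0.45, limma adjusted p = 0.042). Over all, 8277 of the 30505 tested probes passed in Cy5 alone, and 14.3% of all genes passed as higher.

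**Figure D4:**
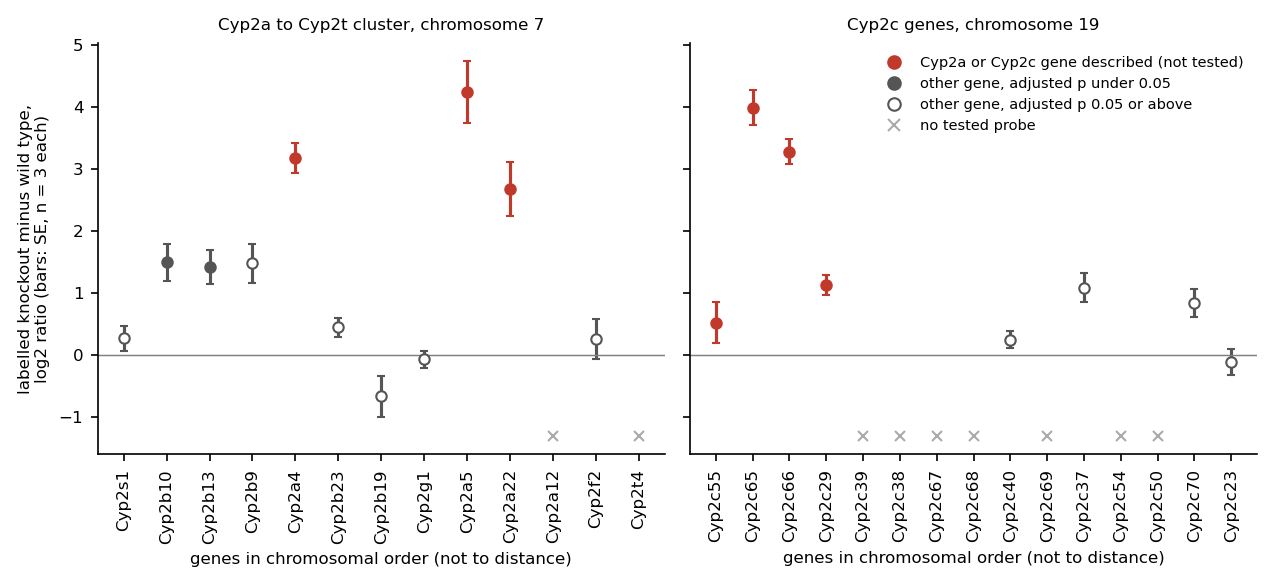
Difference between arrays labelled Pax9 knockout and wild type (log2 ratio, points, with bars for the moderated SE, n = 3 arrays each) for genes of the Cyp2 cluster on chromosome 7 and the Cyp2c genes on chromosome 19, in chromosomal order and not to distance. The described genes are in red, other genes in grey (filled at adjusted p under 0.05), and crosses mark genes with no tested probe. Cyp2a5 (4.24) and Cyp2a22 (2.68) follow Cyp2g1 (-0.07), whose probe was not well above background on any array labelled knockout. Cyp2c65 (3.99) follows Cyp2c55 (0.52).

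Genes that serve or control these enzymes in liver gave no common direction. Of 10 genes for electron and haem supply, all tested, 0 rose and 1 fell, with a median difference of -0.01. Among all 20820 genes 590 rose and 417 fell, with a median of 0.01. The reductase Por read -0.06. The gene that fell was Alas1, the rate-limiting enzyme of haem synthesis, whose Cy5 signals were 4557, 8392 and 6194 on the arrays labelled knockout, against 10723, 10157 and 26488 on those labelled wild type. Its ratio differed by -0.82 (SE 0.15, limma adjusted p = 0.036), and that call was lost when any 1 array was left out (adjusted p up to 0.16) and with the deposited log ratio (0.13).

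Of 22 regulators of Cyp2a and Cyp2c genes known from liver, 20 were tested, 1 rose and 1 fell, with a median difference of -0.04. These counts stand against 590 that rose and 417 that fell among all 20820 genes. Hnf4g, a nuclear receptor of the gut, rose by 0.97 (SE 0.16, limma adjusted p = 0.028), with Cy5 signals of 311, 323 and 301 on the arrays labelled knockout, against 80.7, 74.5 and 165 on those labelled wild type. That call was kept in 1 of the 6 fits that leave out 1 array (adjusted p up to 0.13) and was lost with the deposited log ratio (0.17). The xenobiotic receptors Nr1i2 (0.17) and Ahr (-0.15), the lipid sensor Ppara (-0.19) and the oxidative stress factor Nfe2l2 (0.30) did not pass, nor did Hnf4a (-0.66, limma adjusted p = 0.062).

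Of 8 enzymes that share arachidonic acid or its epoxides with Cyp2c enzymes, 7 were tested, 0 rose and 3 fell, against 417 of 20820 genes that fell in all, with a median difference of -0.60. Ephx2, which hydrolyses the epoxides, had Cy5 signals of 4159, 4483 and 2924 on the arrays labelled knockout, against 5583, 10646 and 16476 on those labelled wild type, and a ratio difference of -2.14 (SE 0.28, limma adjusted p = 0.017). Ptgs2, the inducible cyclooxygenase, had 24.1, 64.9 and 65.6 on the arrays labelled knockout, against 94.9, 189 and 474 on those labelled wild type, and differed by -1.51 (SE 0.16, limma adjusted p = 0.010). Both sets of arrays stood apart without overlap. Ptgs1, the constitutive cyclooxygenase, differed by -0.70 (SE 0.14, limma adjusted p = 0.042), a call lost when any 1 array was left out (adjusted p up to 0.15) and with the deposited log ratio (0.13). Without knockout replicate 3, Ephx2 and Ptgs2 read limma adjusted p of 0.077 and 0.065, without wild type replicate 1 Ephx2 read 0.066, and with median centring Ptgs2 read 0.11.

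The genes most like Cyp2a5 and Cyp2c65 were found by the root mean square difference of log2 ratios over the 6 arrays, each gene centred on its own mean. Each gene entered by its tested probe of highest mean intensity, which for Cyp2a4 is probe C. Nearest to Cyp2a5 were Ces1b, a carboxylesterase (0.28), Krt35, a hair keratin (0.56), and Lpcat2b (0.64). Cyp2a4 read by probe C (0.68) and Cyp2c65 (0.74) came after them. Cyp2a4 probes A and B were not ranked. Their differences of 4.59 and 4.39 lie nearer to the 4.24 of Cyp2a5 than the 3.18 of probe C, so the place of Cyp2a4 holds for probe C only. Ces1b had Cy5 signals of 5639, 5100 and 10640 on the arrays labelled knockout, against 42.4, 62.5 and 344 on those labelled wild type, and like Cyp2a5 it was highest on replicate 3 in each group. Nearest to Cyp2c65 were Emb, an immunoglobulin-family membrane protein (0.28), Ada, adenosine deaminase (0.35), and Dnajc6 (0.48), ahead of Cyp2c66 (0.51). Since the groups lie on separate slides, these 6 arrays cannot tell a shared pattern from a shared slide.

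Markers of tissues that express these enzymes were set beside the genes. Of 9 hepatocyte markers 8 had a probe and 2 were above background on all 6 arrays, with summed Cy5 signals of 936 to 2243 under the knockout label and 478 to 1689 under the wild type label. Alb read 5.62 to 96.8 under the knockout label and 2.74 to 18.4 under the wild type label, and Ttr was above background on 0 arrays. Of 8 intestinal markers 2 were above background on all 6 arrays, with sums of 511 to 1244 under the knockout label and 441 to 4474 under the wild type label, and Cdx1 and Cdx2 were above background on 0 arrays. Of 7 glandular stomach markers 4 were, with sums of 746 to 986 under the knockout label and 640 to 2011 under the wild type label. Gkn1 was above background on 0 arrays. Atp4b rose by 0.81 (limma adjusted p = 0.049) but read 0.16 with the deposited log ratio (limma adjusted p = 0.83). In Cy5 alone Atp4b was higher (1.25, limma adjusted p = 0.0073), while Tff1 (-1.44, limma adjusted p = 0.0039) and Atp4a (-0.80, limma adjusted p = 0.0087) were lower. With the deposited log ratio Atp4a (1.16, limma adjusted p = 0.031) and Gkn2 (1.56, limma adjusted p = 0.032) passed as higher. Of 6 nasal and airway markers 1, Scgb1a1, was above background on all 6 arrays. The sums over that list were 2694 to 7913 under the knockout label and 8600 to 34576 under the wild type label. Scgb1a1 made up nearly all of these sums, at 2661 to 7892 under the knockout label and 8546 to 34364 under the wild type label. It differed by -0.70 on the ratio scale (limma adjusted p = 0.33) and by -2.37 in Cy5 alone (limma adjusted p = 0.019). Among the hepatocyte markers above background on all 6 arrays, Tat read 343 to 407 under the knockout label and 53.6 to 156 under the wild type label, and Ahsg read 518 to 1671 under the knockout label and 262 to 1605 under the wild type label. On the ratio scale Tat differed by 0.39 (limma adjusted p = 0.24) and Ahsg by -0.16, and 0 of the 5 tested hepatocyte markers passed. Tat did pass in Cy5 alone (0.92, limma adjusted p = 0.044). The part of these tissues' RNA in the Cyp2a and Cyp2c values was not tested. All 6 squamous esophageal markers were above background on all arrays and none passed the threshold on the ratio scale. Their sums were 1293048 to 1588141 under the knockout label and 675921 to 1784685 under the wild type label. Krt14 read 66602 to 107123 under the knockout label and 107565 to 235711 under the wild type label. It was lower in Cy5 alone (-1.44, limma adjusted p = 0.0041) but read 0.34 on the ratio scale, and the other squamous markers did not pass in Cy5 alone. The 4 skeletal muscle markers summed to 62296 to 641420 under the knockout label and 11617 to 132252 under the wild type label, overlapping, with differences of 1.00 to 1.28 that did not pass. With the replicate number as a block Tnnt3 passed (1.28, limma adjusted p = 0.045, against 0.47 without it), and the other 3 did not. Their part in the Cyp2a and Cyp2c values was not tested.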

How the data were processed

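Each two-colour array gave deposited scanner files with linear intensity values for 45018 spots, written by Agilent Feature Extraction on design 014868 (version 10.7.3.1 per the file headers, 9.1 per the submitters' processing notes). The files also hold a deposited log10 ratio, Cy5 over Cy3, made by the program with its own background subtraction and dye normalization. The deposited series matrix holds log2 values that run opposite to these (r -0.9935 to -0.9962, slope -1 on each array, medians -0.0212 to 0.0156), so it is log2 of Cy3 over Cy5; how it was centred stays unknown.

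Intensities were corrected with normexp (offset 50) and loess (control spots at weight 0), outlier spots (55 to 164 per array) set to missing and spots of a probe averaged. For Cy5 alone, log2 of the normexp-corrected Cy5 was quantile normalized between the arrays in place of loess. Probes entered the test where Cy5 stood well above background on the 3 arrays of at least 1 group. The fit of knockout minus wild type label used limma 3.58.1 (R 4.3.3), two-sided, with Benjamini-Hochberg adjustment over 30505 probes and a threshold of 0.05; a gene was read by its tested probe of highest mean intensity. The labels call samples of a group biological replicates, with nothing on animals, so a p-value covers the spread of these arrays, whose number limits precision; an exact permutation test of 3 against 3 cannot go below 0.1. The procedure was tested on simulated data. Names came from a RefSeq table of GRCm38.p6 (26918 probes by accession, 5899 by name, 8357 kept), and positions from the files (mm9).

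The genes, lists and naming rule (all probes of the 7 genes, Pax9, listed genes past the threshold up to 6, and the 3 most like Cyp2a5 and Cyp2c65) were chosen with earlier results of these data known; motifs, the Cy3 share and the Xist check were chosen after values were seen. 1 listed gene that the rule takes is not reported here. Replicate numbers pair the arrays by rule: deviations from group means correlated at 0.14, 0.49 and 0.32 for same numbers and at -0.47 to 0.16 for others. Replicates 1, 2 and 3 lay at positions 2, 3 and 4 on both slides, and replicate 3 differed in sex-linked RNA. Replicate number, slide position and this difference therefore cannot be told apart.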

Additional observations from a re-analysis of the deposited data

How the results depend on the processing

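The Cyp2a and Cyp2c differences kept their direction in every alternative run, but calls depended on the setting. The 1274 probes past the threshold became 727 with the deposited log ratio, 714 with the matrix values, 139 with median centring, 8277 in Cy5 alone, 699 where Cy5 had to be above background on all 6 arrays, 5513 with an intensity trend and array weights, 2254 with the replicate number as a block, 1629 without a filter, and 20 on the 4 arrays of dim Xist signal. The 2 cluster neighbours became 0 with the deposited ratio, the matrix, median centring and the dim Xist arrays, 8 in Cy5 alone, 7 with trend and weights and 4 with the block, where Cyp2b9 and Cyp2c37 passed; of the other genes named here only the muscle marker Tnnt3 changed its call with the block. The 6 partners and regulators became 3, 3, 2 and 0 with the deposited ratio, the matrix, median centring and the dim Xist arrays, 15 in Cy5 alone and 14 with trend and weights, and stayed at 6 with the block. Of the 7 genes 6 were past it in the fit used, 4 with the deposited ratio, the matrix or median centring, 7 in Cy5 alone, 6 with the block and 3 on the dim Xist arrays. Leaving out 1 array gave 38 to 1111 probes (lowest without knockout replicate 3), 3 to 6 of the 7 genes (lowest without wild type replicate 1), 0 to 1 neighbours and 1 to 4 partners and regulators. Since the 7 genes were chosen on this comparison, these counts of them support nothing. The causes were not tested. Cy5 signals under 100 lie near background and limit the folds. Among the 9 probes, such signals were found on 1 or more wild type arrays for Cyp2a4 probes A and B, Cyp2a22, Cyp2c29 and Cyp2c55. Among the other genes named, they were found on wild type arrays for Cyp2b19, Cyp2c23, Cyp2c37, Hnf4g and Ces1b. Under both labels they were found for Cyp2b23, Cyp2g1, Cyp2c40, Ptgs2, Hnf4a and Nr1i2. Several tissue markers had them too.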
